A study of Danio rerio with 6 samples.

Results

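Transcripts of 10 zebrafish genes of the retinoid visual cycle were compared between *panx1a*-/- and TL larvae. The members were taken by gene symbol: *rpe65a*, *rpe65b*, *rlbp1a*, *rlbp1b*, *rbp3*, *rbp4l*, *rdh5*, *rdh8a*, *rdh12l* and *lrata*. All 10 were among the 15336 genes listed for every library, and all 10 were among the 12797 genes that passed the filter on low counts and were tested. By edgeR's quasi-likelihood test, 2 of the 10 members were called higher in *panx1a*-/- larvae, where 9.88% of all tested genes were. They were the secreted retinol carrier *rbp4l* (4.36-fold) and the photoreceptor retinol dehydrogenase *rdh8a* (2.12-fold). With 1 library left out, the same test called *rbp4l* in 2 of 6 fits and *rdh8a* in 1. In these fits 0.00776% to 18.5% of all tested genes were called higher. With the share of reads outside genes as a covariate, neither was called, nor was any gene called higher. That share was higher in every *panx1a*-/- library than in every TL library, so the fit cannot tell it from the genotype. With all libraries kept, the matrix carrier gene *rbp3*, the dehydrogenase gene *rdh12l* and *rpe65b* did not pass edgeR's quasi-likelihood test. Nor did *rpe65a*, *rdh5*, *rlbp1a* and *lrata*, grouped here under the pigment epithelium steps, or the Müller glia gene *rlbp1b*. DESeq2 called *rpe65a* and *rbp3*, and edgeR's exact test called *rpe65a*.

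The visual cycle returns spent chromophore to the photoreceptors. Light converts the 11-cis-retinal of an opsin to all-trans-retinal, which photoreceptor dehydrogenases reduce to retinol before it crosses the interphotoreceptor matrix on a binding protein. The retinal pigment epithelium esterifies the retinol, isomerizes the ester to 11-cis-retinol and oxidizes it to 11-cis-retinal, and Müller glia take part in a further route that serves cones.

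The tested larvae were *panx1a*-/- zebrafish of the TL (Tüpfel long fin) strain, a germline knock-out of the channel gene *panx1a* made with TALEN nucleases, so every cell of the animal carries the lesion. The line descends from 1 founder with a short frameshift deletion. The controls were TL larvae that were not edited, and both genotypes were untreated and 6 days post fertilization (dpf) old. Total RNA of whole larvae was sequenced in 3 libraries per genotype, and the number of larvae in a library is not given in the sources used here. The study asked which transcripts change when *panx1a* is lost. Because whole larvae were sequenced, fewer cells of a type and less RNA per cell cannot be told apart.

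Reads counted on genes numbered 13054759 to 17776115 per *panx1a*-/- library and 17349457 to 21472044 per TL library. A floor of 3 counts corresponded to at most 0.209 CPM (a gene's counts scaled to a common library total), and this limit covers counting error only. For *panx1a* itself, 22, 17 and 13 reads were counted in *panx1a*-/- libraries and 110, 114 and 147 reads in TL libraries (log2 fold change -2.72, adjusted p = 0.00793 by edgeR's quasi-likelihood test). Reads outside genes made up 51.6%, 48.4% and 59.4% of uniquely aligned reads in *panx1a*-/- libraries, against 42.9%, 30.2% and 30.7% in TL libraries. Reads that matched more than 1 gene entered the total of these shares only. *panx1a*-/- replicate 2 and TL replicate 1 each stood apart from the other libraries of their genotype. For *panx1a*-/- replicate 2, the root mean square log2 difference over the tested genes was 0.659 from *panx1a*-/- replicate 1 and 0.594 from *panx1a*-/- replicate 3, against 0.574 from TL replicate 1. TL replicate 1 differed by 0.699 from TL replicate 2 and by 0.566 from TL replicate 3. Values below are CPM with TMM normalization in the order of replicates 1, 2 and 3, means carry the SD (n = 3 each), and a gene was called at a Benjamini-Hochberg adjusted p below 0.05 in edgeR's quasi-likelihood test over all tested genes.

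Of the 10 members, 2 were called higher in *panx1a*-/- larvae, where 9.88% of all tested genes were, and 0 were called lower, where 11.8% of all tested genes were. At an unadjusted p below 0.05 in edgeR's quasi-likelihood test, 4 members were higher (20% of all tested genes) and 0 were lower (23.6%). DESeq2, edgeR's exact test and limma-voom also called 0 members lower, where they called 16.1%, 17.6% and 11.8% of all tested genes lower. A log2 fold change above 0 was seen for 8 of the 10 members, against 46.8% of all tested genes. The median was 0.68 for the members and -0.06 for all tested genes. No overlap between the 3 *panx1a*-/- and the 3 TL values was seen for 2 members, against 47.5% of all tested genes.

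**Figure D1:**
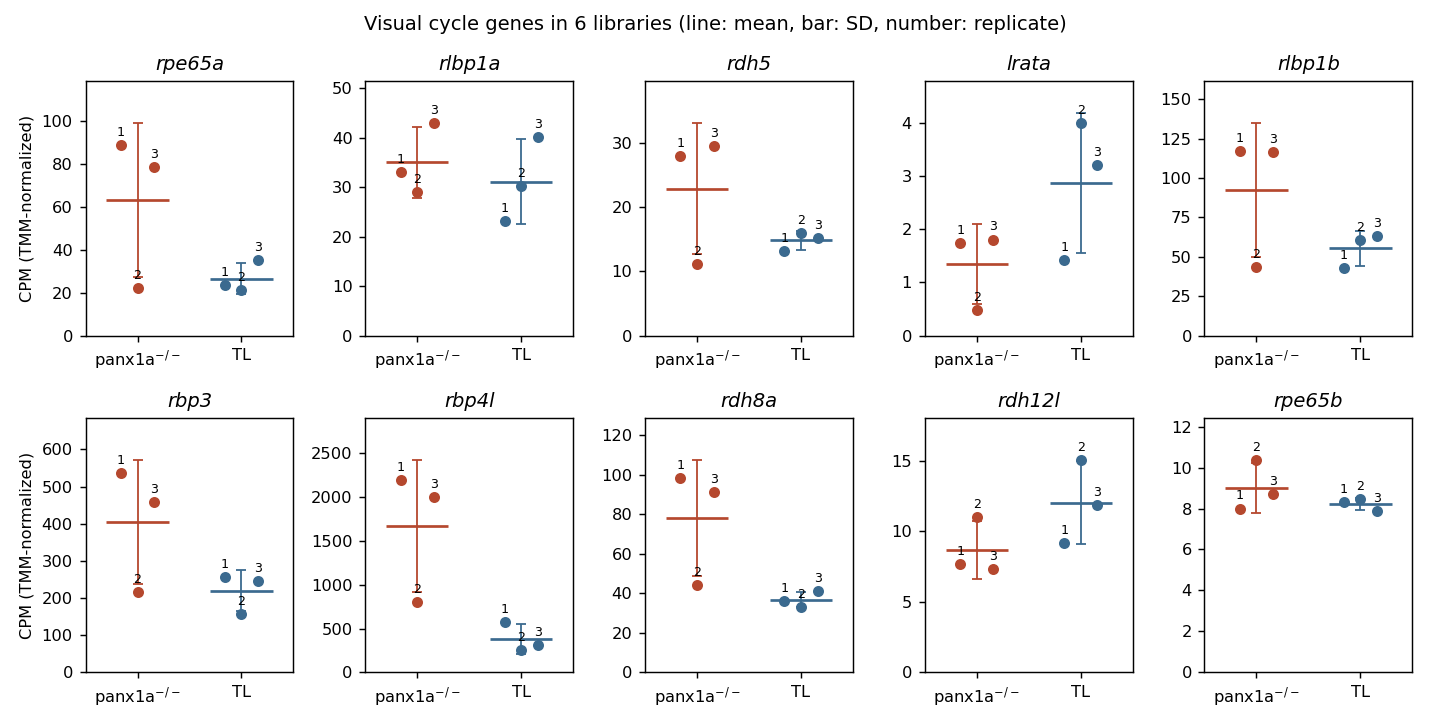
CPM with TMM normalization (y axis, linear from 0) of each member in the 3 *panx1a*-/- and 3 TL libraries. Points are libraries with their replicate number, long horizontal lines are means and vertical bars are SDs; for *rbp4l* the *panx1a*-/- libraries lie between 807 and 2202 CPM, all above the TL libraries, while for *rpe65a*, *rdh5*, *rlbp1b* and *rbp3* *panx1a*-/- replicate 2 lies among or below the TL libraries.

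In photoreceptors, the first step is the reduction of all-trans-retinal. *rdh8a* encodes a photoreceptor all-trans-retinol dehydrogenase that carries out this step. It had 98.6, 44.4 and 91.2 CPM in *panx1a*-/- libraries and 36.1, 33.2 and 41.0 CPM in TL libraries. All *panx1a*-/- libraries lay above all TL libraries, and *panx1a*-/- replicate 2 was the nearest to them. The mean was 78.1 ± 29.4 CPM in *panx1a*-/- larvae and 36.8 ± 3.92 CPM in TL larvae. The log2 fold change was 1.09 (standard error 0.29, 95% interval 0.42 to 1.75), with an adjusted p of 0.0395 in edgeR's quasi-likelihood test.

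*rdh12l* is a relative of the retinol dehydrogenase gene RDH12, which in humans acts in photoreceptors. Its level was 7.65, 11.1 and 7.30 CPM in *panx1a*-/- libraries and 9.18, 15.1 and 11.9 CPM in TL libraries. *panx1a*-/- replicates 1 and 3 lay below every TL library and *panx1a*-/- replicate 2 lay among them. With a log2 fold change of -0.47 (95% interval -1.05 to 0.11), *rdh12l* was not called (adjusted p = 0.183, edgeR's quasi-likelihood test).

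The ratio of *rdh8a* to *rdh12l* counts within a library compared the dehydrogenase genes directly. It was 12.8, 4.01 and 12.4 in *panx1a*-/- libraries and 3.92, 2.21 and 3.45 in TL libraries. The groups did not overlap, but *panx1a*-/- replicate 2 was close to TL replicate 1. The difference was 1.47 on the log2 scale (exact permutation test, two-sided, with p = 0.1, the smallest that 3 libraries against 3 allow, and 0.5 after Benjamini-Hochberg adjustment over 5 ratios).

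Between the cells, retinoids travel on secreted carriers. *rbp4l* encodes purpurin, a retinol-binding protein that photoreceptors secrete into the interphotoreceptor matrix. It had 2202, 807 and 2000.2 CPM in *panx1a*-/- libraries and 578, 253 and 317 CPM in TL libraries. The lowest *panx1a*-/- library, replicate 2, lay above the highest TL library, replicate 1. Set against the TL mean, the *panx1a*-/- libraries were 5.75, 2.11 and 5.22 times as high. The mean was 1669.6 ± 754 CPM in *panx1a*-/- larvae and 383 ± 172 CPM in TL larvae. The log2 fold change of 2.12 (standard error 0.46, 95% interval 1.06 to 3.19) was the largest among the members, with an adjusted p of 0.0308 in edgeR's quasi-likelihood test.

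*rbp3* encodes the interphotoreceptor retinoid-binding protein, the main retinoid carrier of that matrix. Its level was 537, 216 and 458 CPM in *panx1a*-/- libraries and 257, 158 and 245 CPM in TL libraries. *panx1a*-/- replicates 1 and 3 lay above every TL library, whereas *panx1a*-/- replicate 2 lay between the TL libraries. The mean was 404 ± 167 CPM in *panx1a*-/- larvae and 219.9 ± 54.3 CPM in TL larvae. *rbp3* had a log2 fold change of 0.88 (95% interval 0.05 to 1.70), with an unadjusted p of 0.0396 and an adjusted p of 0.0987 in edgeR's quasi-likelihood test. With the replicate number as a block, *rbp3* was called (log2 fold change 0.81, adjusted p = 0.0321, same test), where 13.6% of all tested genes were called higher. DESeq2 also called it (adjusted p = 0.0444).

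The pigment epithelium carries out esterification, isomerization and oxidation. *lrata* belongs to the lecithin retinol acyltransferases, which make retinyl esters. Only 30, 9 and 26 reads were counted in *panx1a*-/- libraries and 26, 66 and 62 reads in TL libraries. These counts correspond to 1.74, 0.478 and 1.81 CPM in *panx1a*-/- libraries and 1.42, 3.99 and 3.20 CPM in TL libraries. TL replicate 1 lay below *panx1a*-/- replicates 1 and 3, so the genotypes overlapped. For *lrata* the log2 fold change was -1.11 with a wide 95% interval from -2.36 to 0.15 (adjusted p = 0.151, edgeR's quasi-likelihood test).

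*rpe65a* encodes the isomerohydrolase of the pigment epithelium, the enzyme that converts retinyl esters to 11-cis-retinol. It had 88.8, 22.2 and 78.5 CPM in *panx1a*-/- libraries and 23.5, 21.3 and 35.1 CPM in TL libraries. *panx1a*-/- replicates 1 and 3 were 3.33 and 2.95 times the TL mean, while replicate 2 was at 0.834 times that mean. The mean was 63.2 ± 35.8 CPM in *panx1a*-/- larvae and 26.6 ± 7.43 CPM in TL larvae. Its log2 fold change of 1.24 was the second largest of the members (standard error 0.48, 95% interval 0.13 to 2.36). *rpe65a* was not called by edgeR's quasi-likelihood test (adjusted p = 0.0887) and was called by edgeR's exact test (adjusted p = 0.0355, with 13.4% of all tested genes called higher) and by DESeq2 (adjusted p = 0.0248, with 15.3%).

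*rdh5* encodes 11-cis-retinol dehydrogenase, which oxidizes the product of the isomerase. It had 27.9, 11.2 and 29.5 CPM in *panx1a*-/- libraries and 13.2, 16 and 15.2 CPM in TL libraries. *panx1a*-/- replicate 2 was the lowest of all 6 libraries and *panx1a*-/- replicates 1 and 3 were the highest. Its log2 fold change was 0.62 (95% interval -0.16 to 1.41, adjusted p = 0.189, edgeR's quasi-likelihood test).

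The cellular retinaldehyde-binding protein CRALBP holds 11-cis-retinoids. Zebrafish have a copy for the pigment epithelium, *rlbp1a*, and a copy for Müller glia, *rlbp1b*. *rlbp1a* had 33.2, 29.0 and 42.9 CPM in *panx1a*-/- libraries and 23.1, 30.3 and 40.1 CPM in TL libraries. The groups were interleaved, and the log2 fold change was 0.17 (95% interval -0.38 to 0.71, adjusted p = 0.601, edgeR's quasi-likelihood test).

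*rlbp1b* had 117, 43.6 and 116 CPM in *panx1a*-/- libraries and 42.7, 60.5 and 63.3 CPM in TL libraries. *panx1a*-/- replicates 1 and 3 lay above every TL library, and *panx1a*-/- replicate 2 lay just above the lowest TL library. *rlbp1b* had a log2 fold change of 0.73 (95% interval -0.13 to 1.60, adjusted p = 0.163, edgeR's quasi-likelihood test). The ratio of *rlbp1a* to *rlbp1b* counts was 0.283, 0.666 and 0.369 in *panx1a*-/- libraries and 0.542, 0.501 and 0.633 in TL libraries. These values overlapped, and the difference was -0.43 on the log2 scale. A two-sided exact permutation test gave p = 0.4 (smallest possible 0.1, adjusted 0.5 over 5 ratios).

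*rpe65b* is a paralog of *rpe65a*. Its level was close in all libraries, with 8.0, 10.4 and 8.69 CPM in *panx1a*-/- libraries and 8.30, 8.46 and 7.90 CPM in TL libraries. Between genotypes its log2 fold change was 0.13 with a 95% interval from -0.29 to 0.56 (adjusted p = 0.592, edgeR's quasi-likelihood test). The ratio of *rpe65a* to *rpe65b* counts was 11.1, 2.14 and 9.0 in *panx1a*-/- libraries and 2.82, 2.51 and 4.43 in TL libraries. *panx1a*-/- replicate 2 had the lowest ratio of all libraries, and the difference was 0.92 on the log2 scale. The two-sided exact permutation test gave p = 0.4 (smallest possible 0.1, adjusted 0.5 over 5 ratios).

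**Figure D2:**
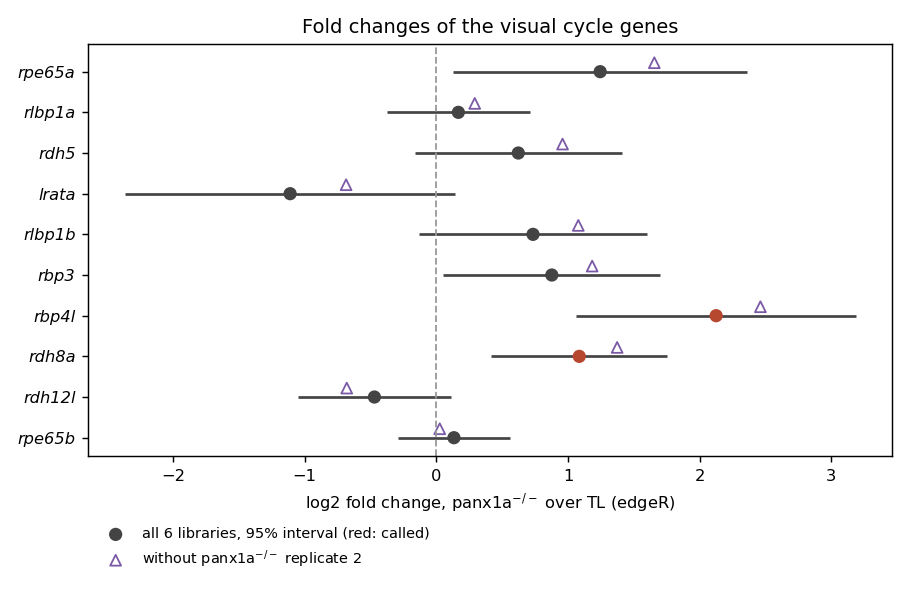
Log2 fold change of each member, *panx1a*-/- over TL (x axis), from edgeR's quasi-likelihood fit. Filled circles with 95% intervals use all 6 libraries and are red for the called genes *rbp4l* (2.12) and *rdh8a* (1.09); open triangles are the values without *panx1a*-/- replicate 2, where *rpe65a* stands at 1.66.

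Ratios between pigment epithelium and matrix genes were compared in the same way, and 3 libraries against 3 allow no p below 0.1. *rlbp1a* to *rbp3* was 0.0617, 0.134 and 0.0937 in *panx1a*-/- libraries and 0.0899, 0.192 and 0.164 in TL libraries (difference -0.62 on the log2 scale, two-sided exact permutation test, p = 0.3). *rpe65a* to *rbp3* was 0.165, 0.103 and 0.171 in *panx1a*-/- libraries and 0.0914, 0.135 and 0.143 in TL libraries (difference 0.24 on the log2 scale, same exact test, p = 0.5). Both had an adjusted value of 0.5 over the 5 ratios. Such a ratio shows unequal change between genes and not which of them changed.

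Among the *panx1a*-/- libraries, replicate 2 held the lowest value for 8 of the 10 members, against 39.6% of all tested genes. In *panx1a*-/- replicate 1, 6 members lay above the highest TL library, in replicate 2 it was 3 members and in replicate 3 it was 8 members. Over all tested genes, these shares were 35.7%, 31.8% and 36.5%. The SD between libraries was larger in *panx1a*-/- than in TL larvae for the members other than *rlbp1a*, *lrata* and *rdh12l*. The lowest TL value lay in replicate 1 for 5 members, in replicate 2 for 4 members and in replicate 3 for 1 member.

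**Figure D3:**
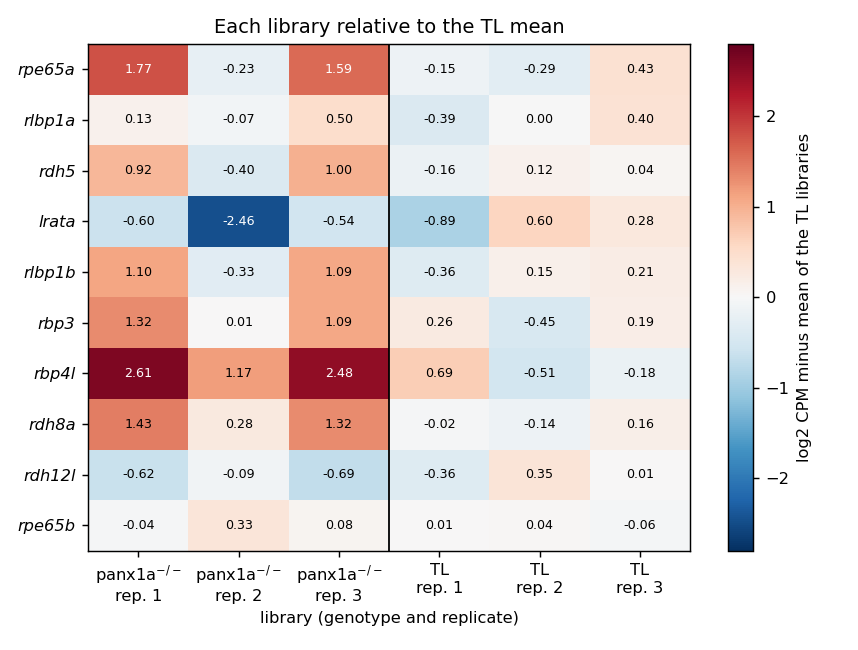
Heat map of log2 CPM of each member (rows) in each library (columns, *panx1a*-/- left and TL right) minus the mean of the 3 TL libraries. *rbp4l* is above the TL mean in every *panx1a*-/- library (2.61, 1.17 and 2.48), whereas *rpe65a* and *rdh5* are above it in replicates 1 and 3 and below it in replicate 2.

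The number of members called hung on single libraries. Without *panx1a*-/- replicate 2, 6 members were called higher, where 12.2% of all tested genes were. They were *rpe65a* (log2 fold change 1.66, adjusted p = 0.00868), *rdh5* (0.96, adjusted p = 0.0121), *rlbp1b* (1.08, adjusted p = 0.0161), *rbp3* (1.18, adjusted p = 0.0231), *rbp4l* (2.46, adjusted p = 0.00868) and *rdh8a* (1.37, adjusted p = 0.00854), all by edgeR's quasi-likelihood test. In that fit 7 of the 10 members had no overlap between genotypes, against 63.8% of all tested genes. Without TL replicate 1 only *rbp4l* was called (2.55, adjusted p = 0.011), where 18.5% of all tested genes were called higher, and *rdh8a* had an adjusted p of 0.052. No member was called by edgeR's quasi-likelihood test without *panx1a*-/- replicate 1, *panx1a*-/- replicate 3, TL replicate 2 or TL replicate 3, where 0.0385%, 0.0231%, 0.294% and 0.00776% of all tested genes were called higher. In those fits the log2 fold change of *rbp4l* was 1.88, 1.98, 1.88 and 2.01 and that of *rdh8a* was 0.89, 0.96, 1.01 and 1.17. The direction of *rbp4l* and *rdh8a* was the same in all 6 fits with a library left out. With all libraries kept, these same 2 members were called with limma-voom, RLE factors, upper-quartile factors, library size only, no filter and at least 10 counts in every library, where 10.4%, 11%, 6.83%, 8.02%, 8.96% and 9.18% of all tested genes were called higher. At an adjusted p below 0.01 in edgeR's quasi-likelihood test, 0 members and 0.0313% of all tested genes were called higher.

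The share of reads outside genes moved with the genotype. With that share as a covariate, no member was called by edgeR's quasi-likelihood test, and the log2 fold changes of *rbp4l* and *rdh8a* were both 0.63 (adjusted p = 0.999). In this fit 0 genes were called higher and 1 gene was called lower, with 222 genes higher and 359 genes lower at an unadjusted p below 0.05. *panx1a*-/- libraries all lay above TL libraries in the share, so it and the genotype cannot be told apart.

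Markers of photoreceptors, the cells that express *rbp4l* and *rdh8a*, moved the same way. The 39 tested photoreceptor markers included no member, and their median log2 fold change was 1.15. Of them, against 9.88% of all tested genes, 25 were called higher in *panx1a*-/- larvae. By class these were 9 of 18 cone markers, 11 of 15 rod markers and 5 of 6 markers of both, and *arr3a*, *gnb3a* and *prph2b* had no reads in any library. Their summed level was 15925, 7545 and 16580 CPM in *panx1a*-/- libraries and 5629, 4988 and 5942 CPM in TL libraries. *panx1a*-/- replicate 2 was thus the lowest *panx1a*-/- library in the markers as in *rbp4l*, *rdh8a* and *rbp3*, whereas it was the highest for *rdh12l*. The part of these markers in the members' changes was not tested.

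The pigment cell list could not separate pigment epithelium from melanophores of the skin. Of its 12 tested markers, 1 was called higher (9.88% of all tested genes were), and the median log2 fold change was 0.23. The summed level was 622, 368 and 516 CPM in *panx1a*-/- libraries and 336, 418 and 479 CPM in TL libraries. It was lowest in *panx1a*-/- replicate 2 among the *panx1a*-/- libraries, as were *rpe65a*, *rdh5*, *rlbp1a* and *lrata*. Many of the 15 Müller glia and astroglia markers are also made in the brain. Of these 15 markers, 3 were called higher and 2 lower (9.88% and 11.8% of all tested genes). Their median log2 fold change was 0.29. Their sums ran between 4300 and 5086 CPM in *panx1a*-/- libraries and between 2954 and 3929 CPM in TL libraries. The part of these cells in the values of *rlbp1b* was not tested.

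Each member was also set against the mean log2 CPM of the photoreceptor markers of its own library, a comparison added after the values were seen and given as a description. Relative to these markers, *rbp4l* was 0.92 higher on the log2 scale in *panx1a*-/- than in TL libraries, with no overlap between genotypes. Single markers were not set against their own mean, so whether some rise above it as far as *rbp4l* was not tested. On the same measure, *rdh8a*, *rbp3* and *rpe65a* differed by -0.16, -0.36 and -0.13, and their genotypes overlapped. *rlbp1b* differed by -0.55 with overlap, and by 0.36 with overlap relative to the Müller glia and astroglia markers. Relative to the photoreceptor markers and without overlap, *rdh5* differed by -0.67, *rlbp1a* by -0.98, *rpe65b* by -1.05, *rdh12l* by -1.63 and *lrata* by -2.27. The mean log2 CPM of the photoreceptor markers was itself 1.17 higher in *panx1a*-/- than in TL libraries. A gene with no change thus comes out negative relative to them, as *rpe65b* did with its log2 fold change of 0.13. The marker means did not overlap between genotypes, with 7.22, 6.27 and 7.20 in *panx1a*-/- libraries and 5.92, 5.48 and 5.79 in TL libraries. A lack of overlap in these negative differences can therefore come from the markers alone. The share of all tested genes without overlap on this measure was not computed. Relative to the pigment cell markers, the pigment epithelium genes *rpe65a*, *rdh5* and *rlbp1a* differed by 0.89, 0.35 and 0.03 with overlap, and *lrata* differed by -1.25 without overlap.

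**Figure D4:**
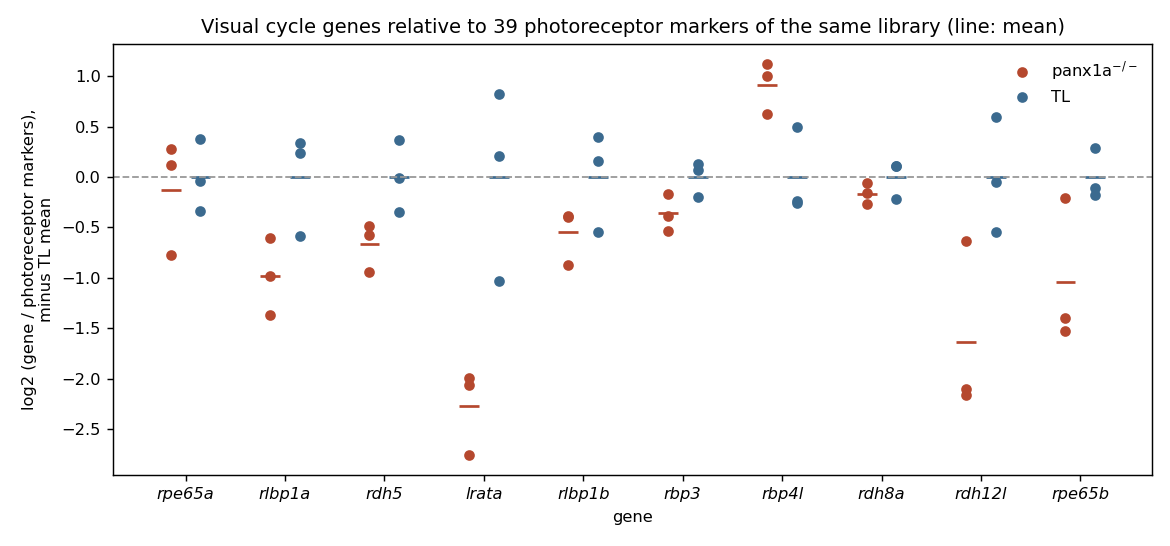
Log2 level of each member relative to the mean log2 CPM of 39 photoreceptor markers of the same library, minus the TL mean (y axis). The markers themselves were higher in *panx1a*-/- libraries, so a gene with no change lies below the TL mean here and may show no overlap. Points are libraries, *panx1a*-/- in red on the left of each pair and TL in blue, and short lines are means; *rbp4l* is the member whose *panx1a*-/- libraries all lie above the TL libraries (0.92), and *lrata* has the lowest mean (-2.27).

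Other genes that handle retinoids were taken from lists written by symbol. Of 76 symbols named, 61 had a row and 57 were tested. Of the 57, 4 were called higher and 6 lower in *panx1a*-/- larvae, where 9.88% and 11.8% of all tested genes were. The median log2 fold change of the 57 was -0.10. Among the 23 tested genes of a broad list of enzymes, carriers and opsins, 3 were called higher and 2 lower, with a median of 0.01. This list also took in dehydrogenase and acyltransferase genes not limited to the eye, such as *rdh1*, *dhrs9* and *dgat1b*. Its log2 fold changes were above 0 for 12 genes and below 0 for 11, and its median does not stand for the visual cycle alone.

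The paralog *rdh8b*, a photoreceptor dehydrogenase gene like *rdh8a*, was called higher. It had 47.2, 23.9 and 44.2 CPM in *panx1a*-/- libraries and 16.6, 11.4 and 13.4 CPM in TL libraries (log2 fold change 1.48, adjusted p = 0.0279, edgeR's quasi-likelihood test). *abca4a*, a relative of the photoreceptor flippase that clears retinal from disc membranes, had 8.99, 4.78 and 8.90 CPM in *panx1a*-/- libraries and 3.17, 3.45 and 4.65 CPM in TL libraries. Its log2 fold change was 1.00 (adjusted p = 0.0495, same test). For both genes, as for *rdh8a*, *panx1a*-/- replicate 2 was the lowest *panx1a*-/- library and still above every TL library. *rdh14b* was the third (0.61, adjusted p = 0.0356, edgeR's quasi-likelihood test). The dehydrogenase genes *rdh1* and *dhrs9* were called lower (-2.14 and -1.18, adjusted p = 0.0279 and 0.0306, same test).

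Of 15 tested genes of retinoid uptake, plasma transport and cellular binding, 0 were called higher (2 at an unadjusted p below 0.05) and 2 lower (8 at an unadjusted p below 0.05) by edgeR's quasi-likelihood test, and the median log2 fold change was -0.99. Over all tested genes, 9.88% were called higher and 11.8% lower. At an unadjusted p below 0.05 in the same test, these shares were 20% and 23.6%. *rbp4*, the plasma retinol-binding protein that in mammals is made mainly by the liver, had 315, 620 and 365 CPM in *panx1a*-/- libraries and 727, 1455 and 960 CPM in TL libraries. Its log2 fold change was -1.27 (adjusted p = 0.0414, edgeR's quasi-likelihood test), opposite in sign to that of *rbp4l*. Here *panx1a*-/- replicate 2 was the highest *panx1a*-/- library, and no library overlapped with the other genotype. *rbp7a*, a cellular retinol-binding protein gene, was also called lower (-1.98, adjusted p = 0.034, same test). The 11 liver markers had a median log2 fold change of -0.88, 1 of them was called lower, and their sum ran between 174 and 311 CPM in *panx1a*-/- libraries and between 157 and 1177 CPM in TL libraries. Of the 10 epidermis markers, 7 were called lower, with a median log2 fold change of -2.41. The cells that gave the *rbp4* reads are not known from whole larvae, and the part of liver or epidermis transcripts in its value was not tested.

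In the list of retinoic acid synthesis, binding and breakdown, 1 of 19 tested genes was called higher and 2 were called lower. The shares over all tested genes were 9.88% and 11.8%. The receptor gene *raraa* was higher (0.99, adjusted p = 0.0344), whereas the receptor gene *rxrba* (-0.91, adjusted p = 0.0279) and the retinaldehyde dehydrogenase gene *aldh1a2* (-0.52, adjusted p = 0.0488) were lower, by edgeR's quasi-likelihood test. The uncalled genes with the lowest p over the 3 lists were *rbp2a*, *bco2b* and *dgat1b*, with log2 fold changes of -2.02, 1.16 and -1.03 and adjusted p of 0.0527, 0.0543 and 0.0604.

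**Figure D5:**
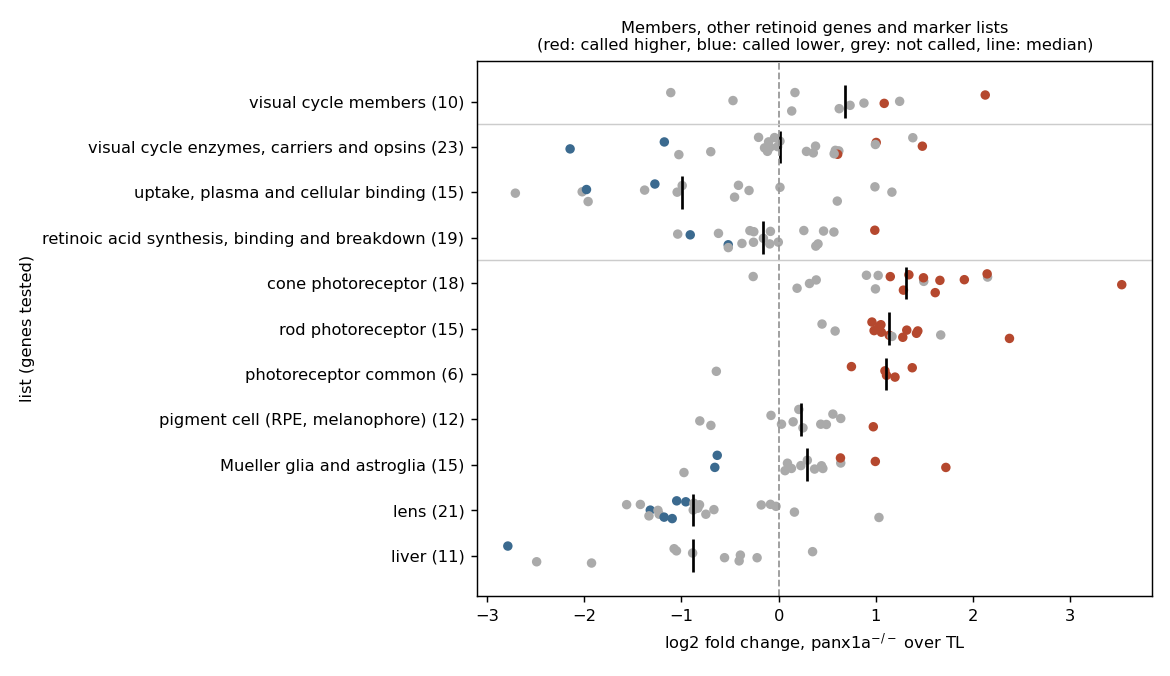
Log2 fold change, *panx1a*-/- over TL (x axis), of the 10 members, of the 3 lists of other retinoid genes and of marker lists (rows, number of tested genes in brackets). Each point is a gene, red if called higher, blue if called lower and grey otherwise, and the black line is the median, which is 0.68 for the members and -0.99 for uptake and binding genes.

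Other tissues in the larvae gave the following marker values. Over all tested genes, 9.88% were called higher and 11.8% lower. Of 24 tested markers of bipolar, horizontal, amacrine and ganglion cells, 5 were called higher and the median log2 fold change was 0.52. Of 21 lens markers, 5 were called lower, with a median of -0.88. Of 10 epidermis markers, 7 were called lower, with a median of -2.41. Gut and exocrine pancreas had 5 of 13 markers called lower (median -2.10), and skeletal muscle had 4 of 11 (median -1.14). Pineal photoreceptors share much of their machinery with those of the retina, and 2 of 5 pineal markers were called higher, with a median of 1.02 and *tph1a* at no reads. The sum over all 9 pineal markers with a row ran between 49.6 and 71.1 CPM in *panx1a*-/- libraries. In TL libraries it ran between 28.4 and 32.9 CPM. These calls are from edgeR's quasi-likelihood test, and the part of these tissues in the members' values was not tested.

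The members did not share a single profile over the libraries. The mean of their centred log2 CPM profiles was 0.56, -0.39 and 0.55 in *panx1a*-/- libraries and -0.37, -0.26 and -0.09 in TL libraries, so *panx1a*-/- replicate 2 lay with the TL libraries. Among the members, *rdh5* (Euclidean distance 0.375 over the 6 libraries) and *rlbp1b* (0.505) were nearest to this mean profile, and *rbp4l* (2.24) and *lrata* (2.23) were farthest from it. Outside the members, and at an average log2 CPM no lower than 1, the genes nearest to it were *ugt1b5* (0.249), *fabp11a* (0.265), *tspan5a* (0.301), *samsn1a* (0.313) and *hacd2* (0.314), none of which was called. The distances are a description over 6 libraries. They were not scaled, so they grow with the size of a change as well as with a different library order. *rbp4l* had the largest log2 fold change of the members (2.12) and *lrata* the lowest (-1.11).

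All 10 symbols matched the RefSeq annotation of the zebrafish assembly GRCz12tu, which is not the build of the counts and was used for neighbours only. There *rpe65b* lies next to a further paralog, *rpe65c*, which had a log2 fold change of -0.10. Reads without a unique alignment, 11.9% to 21.3% of all reads listed, were counted on no gene. How many of them came from such paralogs was not tested. *rpe65a*, *rpe65b*, *rlbp1b* and *rbp3* overlap a neighbouring gene in that annotation. The libraries were directional, but the strand setting of the counting is not given in the sources used here, so the single values of these 4 members are uncertain to that extent. *rbp4l* and *rdh8a* overlap no neighbour there.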

How the data were processed

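Whole *panx1a*-/- and TL larvae at 6 dpf gave 3 RNA-seq libraries each. The authors deposited raw read counts per gene in the layout of HTSeq (0.6.1p2). The submitters' processing notes also name bcl2fastq 2.17, FastQC 0.11.2, Trim Galore 0.4.4, TopHat2 2.0.11 and danRer11. The 5 rows for reads not assigned to a gene, 39.1% to 68.1% of all reads listed, were left out of library sizes and tests. Whether libraries came from separate clutches is not given, so p-values measure the spread between these libraries.

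Counts were analysed in R 4.3.3 with edgeR 4.0.16 (default filter on low counts, TMM, robust quasi-likelihood test, genotype as the only factor, Benjamini-Hochberg adjustment over 12797 genes). The log2 values used a prior count of 2 and ratios a pseudocount of 0.5 counts. Alternatives used DESeq2 1.42.0 and limma 3.58.1, other scalings and filters, a replicate block, a covariate and each library left out. The default fits of edgeR's quasi-likelihood test, edgeR's exact test, limma-voom and DESeq2 were also run on simulated counts. The other settings were not. The text names the members, *panx1a*, called retinoid genes and the 3 uncalled ones with the lowest p. It also names the 5 genes nearest in profile and any gene a result turns on. Members and lists were chosen with earlier results of these data known. Sequences were not analysed here.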

Additional observations from a re-analysis of the deposited data

Results flagged for a closer look

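Reads outside genes made up at least 48.4% of uniquely aligned reads in *panx1a*-/- libraries and at most 42.9% in TL libraries. Their share entered the comparisons of the members only in the covariate fit. The lowest *panx1a*-/- share was that of replicate 2, which held the lowest *panx1a*-/- value of 8 of the 10 members and of 39.6% of all tested genes. The highest TL share was that of replicate 1, which held the lowest TL value of 5 members and the highest of 2. Over all tested genes, these shares were 39.3% and 38.8%. The part of this share in the members' values was not tested, because the covariate fit cannot tell the share from the genotype.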

How the results depend on the processing

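*rbp4l* and *rdh8a* were called in 9 of 11 other settings that kept all libraries, and not in the covariate fit (adjusted p = 0.999) or at an adjusted p below 0.01. DESeq2 called 1961 genes and 4 members higher. Library size as the only scaling called 607 genes lower and moved the median log2 fold change of all genes to 0.17, against -0.17 with upper-quartile factors. With that scaling 1026 genes were called higher, and with upper-quartile factors 874 genes were called higher and 1925 lower. The covariate fit called 0 genes higher, 1 lower and 0 members, and turned *rdh12l* to 0.38. An adjusted p below 0.01 left 4 genes higher, 9 lower and 0 members. With a library left out, 1 to 2392 genes were called higher, 1 to 2316 lower and 0 to 6 members higher, and 2 to 7 of the 10 members did not overlap, where 50.9% to 66.1% of all tested genes did not. The log2 fold change of *rlbp1a* ran from -0.0047 (without TL replicate 1) to 0.39 (without TL replicate 3). The cause of these shifts was not tested. With at least 10 counts in every library *lrata* was not tested. Over the settings of the single members, 146 values kept direction and side of the threshold, 8 passed it newly, 13 no longer passed it and 2 changed sign.

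The replicate number of the labels as a block called 1743 genes higher, 2139 lower and 3 members higher. Deviations of same-numbered libraries correlated across genes at r = 0.117, 0.301 and 0.078. Those of differently numbered libraries ran from -0.214 to 0.139, the highest being *panx1a*-/- replicate 3 with TL replicate 1. Whether a shared number marks a pairing is not given in the sources used here. These correlations do not settle it, and the main fit used genotype alone. Among the members the block added the call of *rbp3*.

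Depth limits *lrata* most, with as few as 9 counts in a library. With 3 libraries against 3, the smallest p of a ratio is 0.1.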

Other observations

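Several further retinoid genes followed the library order of *rpe65a*, with *panx1a*-/- replicates 1 and 3 above every TL library and *panx1a*-/- replicate 2 not above them. This pattern was taken from the members and counted after the values were seen, so the count of members with it is no test. The pattern held for 4 of the 10 members (*rpe65a*, *rdh5*, *rlbp1b* and *rbp3*), for 10 of the 57 other tested retinoid genes and for 929 of all tested genes (7.26%). Among them was *stra6*, the receptor that takes up retinol from its plasma carrier, with 49.6, 17.3 and 51.5 CPM in *panx1a*-/- libraries and 17.9, 18.7 and 22.9 CPM in TL libraries. Its log2 fold change was 0.99 (adjusted p = 0.0896, edgeR's quasi-likelihood test). *lratb.2*, a paralog of *lrata*, had 17.4, 3.77 and 13.4 CPM in *panx1a*-/- libraries and 4.15, 3.87 and 5.21 CPM in TL libraries (1.38, adjusted p = 0.0775, same test), opposite in sign to *lrata*.

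Opsin relatives of the pigment epithelium and Müller glia also met this pattern, without a call. *rgra* had 48.1, 16.7 and 31.4 CPM in *panx1a*-/- libraries and 25.1, 21.2 and 27.7 CPM in TL libraries. *rgrb* had 58.8, 18.5 and 48.3 CPM in *panx1a*-/- libraries and 23.5, 32.9 and 46.5 CPM in TL libraries. *rrh* had 3.42, 0.797 and 2.29 CPM in *panx1a*-/- libraries and 0.929, 1.51 and 1.91 CPM in TL libraries. *rgra*, *rgrb* and *rrh* were lowest of all 6 libraries in *panx1a*-/- replicate 2, whereas for *rpe65a* that replicate lay among the TL libraries. Their log2 fold changes were 0.38, 0.29 and 0.57 (adjusted p = 0.412, 0.621 and 0.413, edgeR's quasi-likelihood test).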
